A study of Homo sapiens with 2 samples.

Results

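The ERBB and insulin receptor route to phosphoinositide 3-kinase (PI3K) was followed through 10 genes, EGFR, ERBB2, ERBB3, ERBB4, IGF1R, INSR, IRS1, PIK3CA, PIK3R1 and AKT1. They were taken by gene name with no cut on a measured value, but were proposed with earlier results of these data known. All 10 were found among the 18781 genes of the deposited table. The table holds 2 RNA-seq libraries from T47D, a luminal breast cancer cell line whose genotype is given as wild type. There is 1 library of RNA that coprecipitated with an anti-IMP1 antibody and 1 of RNA that came down with control IgG. IMP1 is an RNA-binding protein, and in RNA immunoprecipitation (RIP) RNA held by the antibody on beads is kept through washing and then sequenced. The lysates were incubated with the beads for 4 h in the cold per the labels, whereas the study's methods give an overnight incubation. Neither group has a replicate and no input RNA was analysed here, so each difference below is one between 2 libraries, has no error and has no test. Levels are in FPKM (fragments per kilobase of transcript, scaled to the fragments of the library), which can be compared between genes because they are per length. The depth of the libraries is unknown.

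ERBB receptors are tyrosine kinases that pair after binding ligands of the epidermal growth factor and neuregulin families. The insulin and IGF1 receptors belong to another kinase family and pass their signal through docking proteins such as IRS1. Docked receptors recruit PI3K, a dimer of a catalytic subunit (p110-alpha, from PIK3CA) and a regulatory subunit (p85-alpha, from PIK3R1), whose lipid product activates the kinase AKT1. In luminal breast cancer this route supports growth and survival beside the estrogen receptor, and T47D cells are known for an activating mutation in PIK3CA.

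The genes of the route did not lie on the same side in the IMP1 precipitate. ERBB3, IGF1R and AKT1 were more than 2-fold higher there than with IgG, whereas IRS1 and both PI3K subunits were more than 2-fold lower. EGFR, ERBB2 and ERBB4 differed by less than 2-fold, and INSR was low with the IMP1 antibody and listed at 0 with IgG. Each difference is stated as log2 of (FPKM + 0.1) with IMP1 minus log2 of (FPKM + 0.1) with IgG, called the log2 ratio. The added 0.1 makes changes of low genes look smaller than they are. By this measure 39.9% of all genes were at least 2-fold higher and 29.9% at least 2-fold lower, so a split to both sides is common here.

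**Figure D1:**
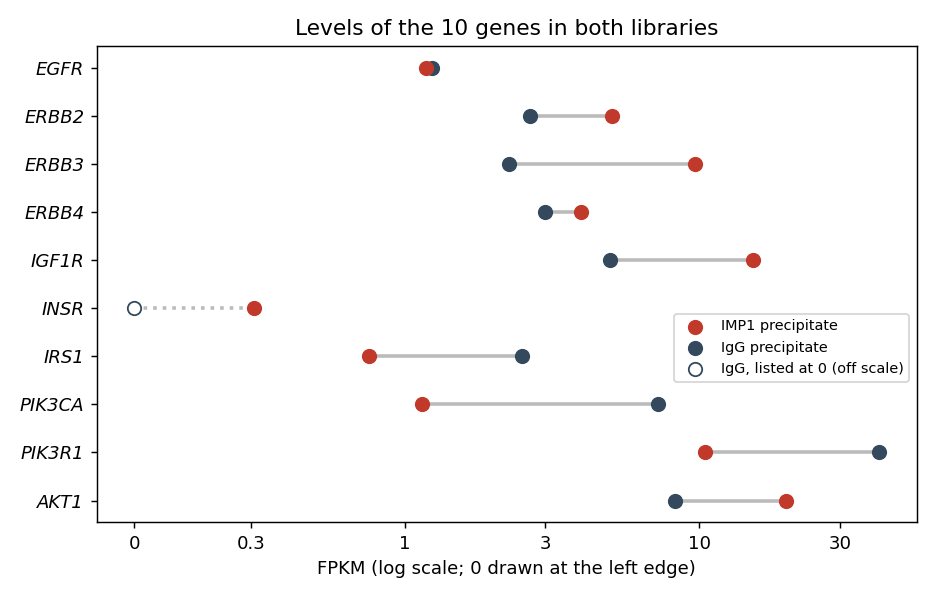
FPKM of each of the 10 genes (log axis) in the IMP1 precipitate (red) and the IgG precipitate (blue), 1 library each, with the open circle for a gene listed at 0. The red point lies to the right for ERBB3, IGF1R and AKT1 and to the left for IRS1, PIK3CA and PIK3R1, while the points of EGFR nearly coincide.

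Luminal identity was visible in both libraries. Of 16 luminal epithelial markers, 16 were above 0 with the IMP1 antibody and 13 reached 1 FPKM in both libraries. The other 3 were listed at 0 with IgG, and these were TFF3, at 24.4 FPKM with IMP1, ELF3, at 6.98 FPKM, and TFF1, at 0.869 FPKM. In FPKM, GATA3, a luminal transcription factor, was at 53.7 with IMP1 and 21.6 with IgG, and the estrogen receptor gene ESR1 was at 9.60 and 9.04. The luminal markers had a median log2 ratio of 1.32, against 0.40 over all genes. Of the 16, 10 were at least 2-fold higher and 0 lower, beside 39.9% and 29.9% of all genes. Markers of mesenchymal cells moved the other way, with 11 of the 13 in the table at least 2-fold lower, beside 29.9% of all genes. Their summed level was 3.47 FPKM with IMP1 and 230.1 FPKM with IgG, and DCN, LUM and COL1A2 were at 0 with IMP1. Of 5 blood cell markers in the table, 3 were lower and 2 were higher, with a summed level of 7.54 FPKM with IMP1 and 327.1 FPKM with IgG, most of it from CD74 (6.42 and 304.8 FPKM), and CD14 was among those listed at 0 with IgG. Their part in the values of the 10 genes was not tested. Both precipitates are bulk samples, in which fewer cells of a type, less RNA per cell and less RNA held by the beads cannot be told apart.

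Among the ERBB receptors, ERBB3, the kinase-impaired partner that carries many docking sites for p85, stood at 9.63 FPKM with the IMP1 antibody and at 2.26 FPKM with IgG. This is 4.26-fold higher as a plain ratio of FPKM and 2.04 on the log2 scale, the largest among the 9 members above 0 in both libraries. ERBB2, the receptor that has no ligand of its own and is the preferred partner of the others, had 5.04 FPKM with IMP1 and 2.65 FPKM with IgG. Its ratio of 1.90-fold (0.90 on the log2 scale) stayed just inside the 2-fold limit. ERBB4, a neuregulin receptor, had 3.97 and 2.99 FPKM, a log2 ratio of 0.40. EGFR, the receptor of epidermal growth factor, was low in both, with 1.18 and 1.24 FPKM and a log2 ratio of -0.06, which turned above 0 under each rescaling of the libraries (0.47 to 1.73).

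The order of the ERBB receptors therefore changed between the precipitates. With the IMP1 antibody it ran from ERBB3 over ERBB2 and ERBB4 to EGFR, and with IgG from ERBB4 over ERBB2 and ERBB3 to EGFR. ERBB3 made up 48.6% of the summed FPKM of the 4 receptors with IMP1 and 24.7% with IgG, while ERBB2 made up 25.4% and 29.0%, and EGFR made up 5.94% and 13.5%. Such shares within a library do not depend on how the libraries are scaled. Without replicates it cannot be said whether neighbours in either order, such as ERBB2 and ERBB4, differ.

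The table gives ERBB2 (ENSG00000141736) on chromosome 17 from 37827375 to 37887040 on hg19, an interval that it shares with PGAP3 and MIEN1. PGAP3, a gene of lipid remodelling on glycosylphosphatidylinositol anchors, had 2.63 FPKM with IMP1 and was listed at 0 with IgG, whereas MIEN1 had 10.3 and 19.3 FPKM. The starts of PGAP3 and ERBB2 face away from each other across 36 bases, shown here because the genes on either side differed in the IgG library, where ERBB2 was present and PGAP3 was listed at 0. The stretch is chr17:39688058-39688093 on GRCh38.p14, plus strand, from RefSeq, and ends just before the first annotated ERBB2 start. Capitals mark 2 non-overlapping matches to CCGGAA, read on either strand (TTCCGG), the core letters of ETS factor sites, which 17.2% of the 35116 RefSeq promoter windows of 300 bases hold. Those windows are longer than this stretch, so the share gives no rate for 2 matches in 36 bases. Any link of the motif to the precipitated RNA was not tested.
ERBB2-PGAP3: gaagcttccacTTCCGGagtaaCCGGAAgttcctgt

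The chromosome 17 neighbours of ERBB2 were uneven. STARD3, a cholesterol transporter of late endosomes, had 8.69 FPKM with IMP1, GRB7, an adaptor that binds activated ERBB2, had 1.51 FPKM, and PPP1R1B had 0.309 FPKM, and all of these were listed at 0 with IgG. Together with PGAP3, 4 of the 5 neighbours in the table were listed at 0 with IgG, as were 7270 of all 18781 genes. Of the 2984 genes whose IMP1 value lay within 1.5-fold of that of GRB7, 35.1% were listed at 0 there too.

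The insulin-family receptors were unequal in level. IGF1R, the receptor of IGF1 and IGF2, had 15.2 FPKM with the IMP1 antibody, second to AKT1 among the 10 genes, and 4.96 FPKM with IgG, which is 3.07-fold higher and 1.60 on the log2 scale. INSR, the insulin receptor, had 0.307 FPKM, the lowest level of the 10 genes in the IMP1 library, and was listed at 0 in the IgG library, so that no fold is given. It counts as at least 2-fold higher through the pseudocount of 0.1, and with a pseudocount of 1 its log2 ratio was 0.39. Of the 1974 genes whose IMP1 value lay within 1.5-fold of that of INSR, 1343 (68.0%) were listed at 0 with IgG, so INSR shared this with most genes at its level.

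IRS1, PIK3CA and PIK3R1, the 3 members placed between the receptors and AKT1, were at least 2-fold lower with IMP1 in the deposited values. So were 29.9% of all genes, and 44.0% of those that reached 1 FPKM in each library. Other genes at this step lay on both sides, but those past 2-fold higher were all below 1 FPKM with IgG. The 14 adaptor and docking genes had 4 higher, 3 of them at 0 with IgG, and 5 lower. The 5 entries for other class I PI3K subunits had 2 higher and 1 lower, beside 39.9% and 29.9% of all genes. With at least 1 FPKM in both, 8 adaptors had 0 higher and 4 lower. Likewise 3 PI3K entries had 0 higher and 1 lower, beside 11.5% and 44.0% of all such genes. IRS1, the docking protein of the IGF1 and insulin receptors, had 0.753 FPKM with IMP1 and 2.49 FPKM with IgG. It was 3.30-fold higher with IgG, a log2 ratio of -1.60, which turned to 0.15 when the libraries were rescaled to the same sum. Within the IMP1 library IGF1R was at 20.2 times the level of IRS1, and within the IgG library at 1.996 times.

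Both PI3K subunits were lower with the IMP1 antibody. PIK3R1 had 10.5 FPKM with IMP1 and 40.8 FPKM with IgG, the highest level of the 10 genes there, and was 3.91-fold higher with IgG (log2 ratio -1.96). PIK3CA had 1.15 and 7.21 FPKM and was 6.29-fold higher with IgG, a log2 ratio of -2.55 and the smallest of the 10. Both ratios stayed below 0 under each rescaling and pseudocount. The regulatory subunit exceeded the catalytic subunit in both libraries, 9.13-fold with IMP1 and 5.67-fold with IgG, so the balance of the dimer's 2 mRNAs changed 1.61-fold. Each subunit changed more than this in the deposited values, but PIK3R1 changed less with the libraries rescaled to the same sum (log2 ratio -0.09).

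AKT1, the kinase that PI3K lipids recruit to the membrane, ranked first of the 10 genes with IMP1 at 19.7 FPKM and second with IgG at 8.25 FPKM. It was 2.39-fold higher with IMP1, a log2 ratio of 1.24. AKT1 exceeded PIK3R1 1.88-fold in the IMP1 library, whereas in the IgG library PIK3R1 exceeded AKT1 4.95-fold, so that this pair of genes exchanged places.

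As deposited, the 10 genes summed to 67.4 FPKM with IMP1 and 72.9 FPKM with IgG, and the rescalings would multiply the IMP1 sum by 1.49 to 3.67. The make-up of the sum does not depend on the scale. The 6 receptors held 52.5% of the sum with IMP1 and 19.4% with IgG, whereas IRS1, PIK3CA and PIK3R1 together held 18.3% and 69.3%. AKT1 held 29.2% and 11.3%. The order of the 10 genes in the IMP1 library was AKT1, IGF1R, PIK3R1, ERBB3, ERBB2, ERBB4, EGFR, PIK3CA, IRS1 and INSR. In the IgG library it was PIK3R1, AKT1, PIK3CA, IGF1R, ERBB4, ERBB2, IRS1, ERBB3, EGFR and INSR.

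**Figure D2:**
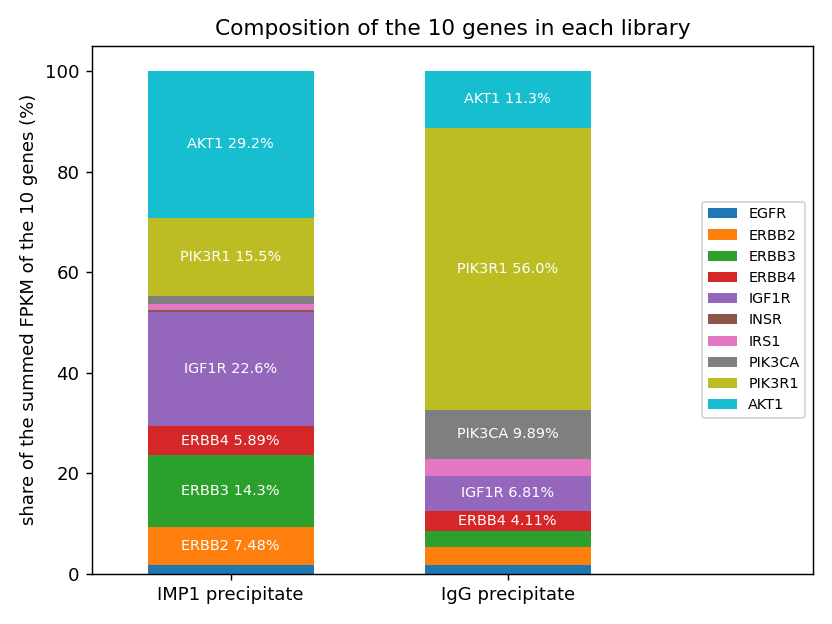
Share of the summed FPKM of the 10 genes (%, stacked bars from 0) held by each gene in the IMP1 and the IgG precipitate, 1 library each. PIK3R1 takes 56.0% of the IgG bar and 15.5% of the IMP1 bar, and AKT1, IGF1R and ERBB3 take larger shares of the IMP1 bar.

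The counts of the 10 genes were read against those of all genes. At the 2-fold limit 4 of the 10 genes were higher with IMP1, beside 39.9% of all genes, and 3 were lower, beside 29.9%. At 4-fold, 2 were higher (ERBB3 and INSR), beside 26.1% of all genes, and 1 was lower (PIK3CA), beside 17.3%. Of the 7488 higher genes, 5681 are listed at 0 with IgG, so the 6909 genes that reached 1 FPKM in both were also taken as background. Of the 8 members among them, 3 were at least 2-fold higher, beside 11.5%, and 2 were at least 2-fold lower, beside 44.0%. The members had a median log2 ratio of 0.65, against 0.40 over all genes, and the 8 members with at least 1 FPKM in both also had 0.65, against -0.78. The ratio of ERBB3 exceeded that of 96.9% of those 6909 genes, that of IGF1R 94.7%, that of AKT1 91.4% and that of ERBB2 87.1%. The ratio of PIK3R1 exceeded that of 21.2% of them and that of PIK3CA 11.1%. These genes were proposed with earlier results known, and the counts are a description.

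**Figure D3:**
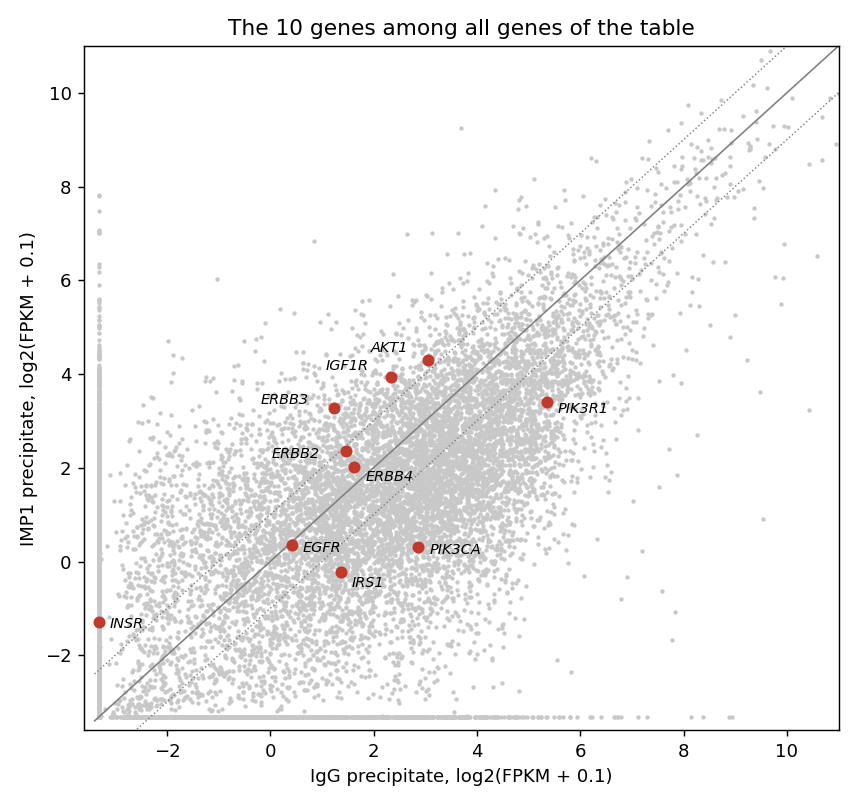
Level of every gene in the IgG precipitate (horizontal) and the IMP1 precipitate (vertical), both as log2(FPKM + 0.1), with the 10 genes in red, the solid line for equal levels and dotted lines for 2-fold. ERBB3, IGF1R, AKT1 and INSR lie above the upper dotted line, PIK3CA, PIK3R1 and IRS1 lie below the lower one, and 33 genes beyond the axes are not drawn.

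The scale of the libraries bears on these directions, since all FPKM values together came to 353885 with IMP1 and to 1298363 with IgG. Setting to 1 the median ratio over those 6909 genes raises the IMP1 values by 0.79 on the log2 scale. With it the log2 ratios were 2.83 for ERBB3, 2.39 for IGF1R, 2.04 for AKT1 and 1.68 for ERBB2, and ERBB4, at 1.17, also passed the 2-fold limit. PIK3CA (-1.81) and PIK3R1 (-1.17) remained more than 2-fold lower, and IRS1 (-0.88) did not. Rescaling to the same sum is a shift of 1.88 and left PIK3CA at -0.76 and PIK3R1 at -0.09. ERBB3, IGF1R and AKT1 exceeded 2-fold under each of the 8 settings of pseudocount, filter and scale, with lowest log2 ratios of 1.70, 1.44 and 1.16.

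**Figure D4:**
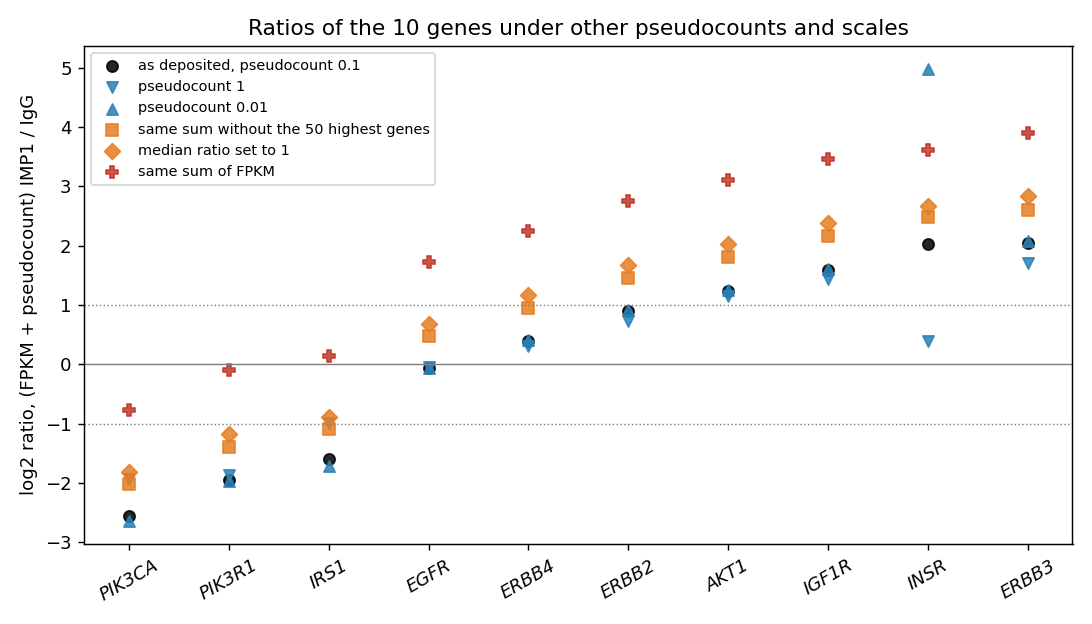
Log2 ratio of (FPKM + pseudocount) in the IMP1 over the IgG library for each gene, in rising order of the deposited ratio, under other pseudocounts and 3 rescalings. PIK3CA and PIK3R1 lie below 0 and ERBB3, IGF1R and AKT1 above the dotted 2-fold line at every point, while IRS1 and EGFR cross 0 under rescaling and INSR moves with the pseudocount.

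Several of the 10 genes share their table interval with another gene, so reads at overlapping ends may have been assigned to either, and the sources used here do not say whether strand was used. This held for 6 of the 10, beside 47.5% of all genes. ERBB3 (ENSG00000065361, chromosome 12, 56473641 to 56507691) shared its interval with PA2G4, an ERBB3-binding protein gene, which had 30.5 FPKM with IMP1 and 29.9 FPKM with IgG and so did not share the difference of ERBB3. The same interval held RP11-603J24.17 at 8.29 FPKM with IMP1 and at 0 with IgG. PIK3CA (ENSG00000121879, chromosome 3, 178865902 to 178984790) shared its interval with KCNMB3, a potassium channel subunit gene whose end overlaps that of PIK3CA in RefSeq and which was listed at 0 with IMP1 and had 13.7 FPKM with IgG, the same direction as PIK3CA. Also there, in the other direction, were RP11-245C23.3, at 0.690 FPKM with IMP1 and 0 with IgG, and LRRFIP1P1, at 0.175 FPKM and 0. IGF1R (ENSG00000140443, chromosome 15, 99192200 to 99675798) lay with SYNM, which had 0 and 0.134 FPKM, and RP11-6O2.4, at 0.108 FPKM and 0. EGFR (ENSG00000146648, chromosome 7, 55086714 to 55324313) lay with EGFR-AS1, at 0.0231 FPKM and 0, and AKT1 (ENSG00000142208, chromosome 14, 105235686 to 105262088) with RP11-982M15.2, at 0.253 FPKM and 0. ERBB4 (ENSG00000178568, chromosome 2, 212240446 to 213403565), INSR (ENSG00000171105, chromosome 19, 7112266 to 7294045), IRS1 (ENSG00000169047, chromosome 2, 227596033 to 227664475) and PIK3R1 (ENSG00000145675, chromosome 5, 67511548 to 67597649) were alone in theirs.

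The remaining genes of the route were taken from 9 lists by role, with 104 gene symbols, of which 89 were in the table on 90 entries. Of these, 27 were at least 2-fold higher with IMP1 and 25 were at least 2-fold lower, beside 39.9% and 29.9% of all genes, and 10 of the 27 were listed at 0 with IgG. Their median log2 ratio was -0.16, against 0.40 over all genes. Among the 58 that reached 1 FPKM in both, 8 were higher and 18 were lower, beside 11.5% and 44.0% of all such genes, with a median of -0.41 against -0.78. All 25 lower genes stayed below 0 when the median ratio was set to 1, and 7 of them turned above 0 with the same sum.

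**Figure D5:**
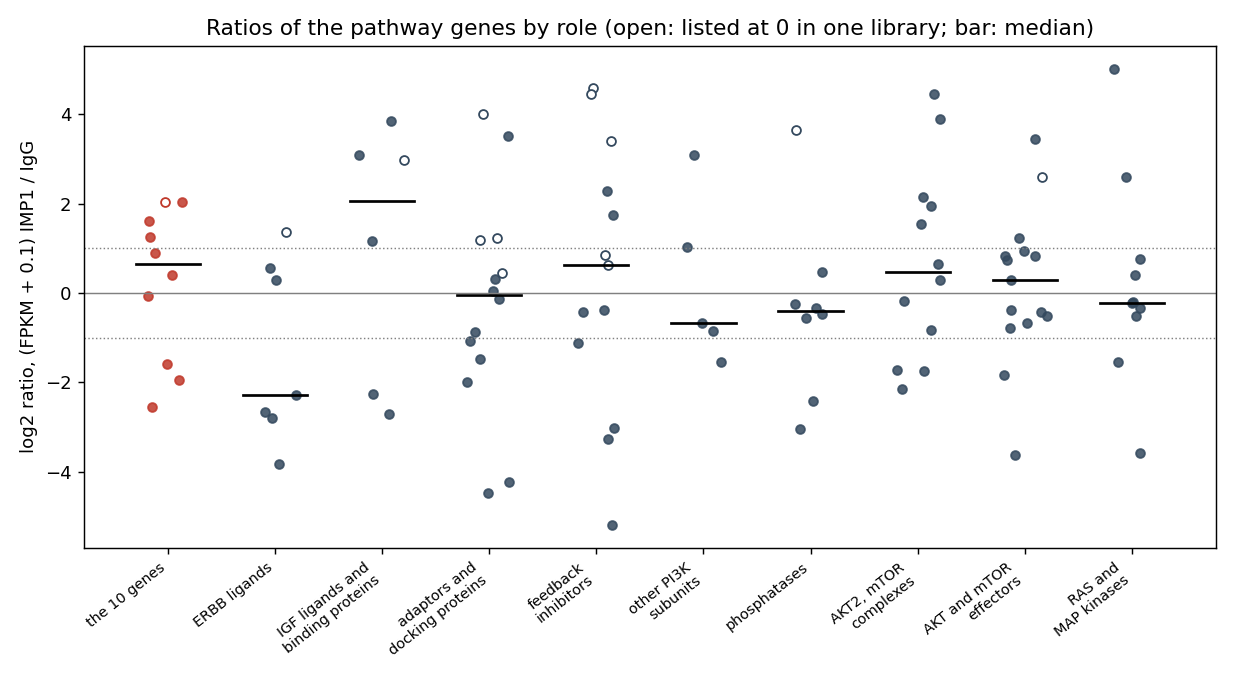
Log2 ratio of (FPKM + 0.1) in the IMP1 over the IgG library for the 10 genes (red) and for the other genes of the route by role (blue), with open circles for genes listed at 0 in a library, bars for medians and dotted lines for 2-fold. ERBB ligands have the lowest median (-2.29, 7 genes) and IGF ligands and binding proteins the highest (2.06, 6 genes). Every group has genes on both sides of 0.

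Of 7 ERBB ligand genes, 4 were at least 2-fold lower, beside 29.9% of all genes. The 1 that was higher, beside 39.9%, was BTC, at 0.156 FPKM and listed at 0 with IgG. AREG, an estrogen-induced EGFR ligand, had 4.55 FPKM with IMP1 and 32.1 FPKM with IgG, and NRG4, a ligand of ERBB4, had 1.55 and 10.4 FPKM. EGF had 2.63 and 1.74 FPKM. On the IGF side 4 of 6 genes were higher and 2 were lower, beside 39.9% and 29.9% of all genes. The 4 higher ones were all binding protein genes, and 1 of them, IGFBP6, at 0.688 FPKM with IMP1, was listed at 0 with IgG. The 2 lower ones were IGF2, the ligand in the table, at 0.0432 and 0.836 FPKM, and IGF2R, a receptor that clears it, at 2.17 and 10.9 FPKM. IGFBP5, which binds IGFs outside the cell, had 143.8 FPKM with IMP1 and 17.0 FPKM with IgG, 8.47-fold higher, and IGFBP4 had 81.7 and 36.7 FPKM.

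Adaptors and feedback inhibitors were spread to both sides. Of 14 adaptor and docking genes 4 were higher and 5 were lower, beside 39.9% and 29.9% of all genes. SHC1 was level, at 16.8 and 16.2 FPKM, whereas GRB2, which links receptors to the RAS exchange factor SOS1, had 7.47 FPKM with IMP1 and 0.566 FPKM with IgG, and SOS1 itself had 1.28 and 25.9 FPKM. IRS2, the paralog of IRS1, had 0.129 FPKM with IMP1 and was listed at 0 with IgG, as were 78.1% of the 1448 genes near its level. Of 13 feedback inhibitors 5 were higher and 4 were lower, near the same shares. LRIG1, a membrane protein that promotes ERBB degradation, had 8.27 and 1.63 FPKM, and the MAP kinase phosphatase gene DUSP4 had 6.19 and 1.79 FPKM. ERRFI1, an inhibitor of the ERBB kinase domain, had 2.01 and 20.3 FPKM, and the ubiquitin ligase gene CBLB had 0.195 and 10.7 FPKM.

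Among the other class I PI3K genes, PIK3CB, the p110-beta gene, had 5.08 FPKM with IMP1 and 8.20 FPKM with IgG and stayed within 2-fold, and PIK3R3, another regulatory subunit, had 1.75 and 5.31 FPKM, a log2 ratio of -1.55 that turned to 0.27 with the same sum. PIK3R2 is listed under a pair of identifiers in 1 interval, with 1.34 and 2.49 FPKM for ENSG00000105647 and with 0.754 FPKM and practically 0 for ENSG00000268173, so its split is uncertain. PIK3CA thus exceeded PIK3CB in neither library. Of 8 phosphatase genes 1 was higher and 2 were lower, beside 39.9% and 29.9% of all genes. INPP4B, a lipid phosphatase, had 1.78 and 2.68 FPKM, and the protein phosphatase 2A genes PPP2CA (19.3 and 26.8 FPKM) and PPP2R1A (14.3 and 10.2 FPKM) stayed within 2-fold.

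AKT2, a paralog of AKT1, had 15.7 FPKM with IMP1 and 5.32 FPKM with IgG, 2.95-fold higher and in the direction of AKT1. Of the 12 genes of the AKT and mTOR group 5 were higher and 3 were lower. This and the next counts stand beside 39.9% higher and 29.9% lower of all genes. MLST8, an mTOR complex subunit, had 11.2 and 9.17 FPKM. RHEB, the GTPase that activates mTOR, had 9.46 and 31.5 FPKM, and MAPKAP1, a subunit of mTOR complex 2, had 8.53 and 28.8 FPKM, and the ratios of both turned above 0 with the same sum. Of 15 substrates and effectors 3 were higher and 2 were lower, and the highest were RPS6, at 214.7 and 341.0 FPKM, and EIF4EBP1, at 29.6 and 40.0 FPKM. In the RAS and MAP kinase branch 2 of 10 genes were higher and 2 were lower. MAPK3 had 14.2 FPKM with IMP1 and 0.343 FPKM with IgG, and HRAS, named after its values were seen, had 6.96 and 1.07 FPKM. MAP2K2, a MAP kinase kinase gene at 13.5 and 39.7 FPKM, had a log2 ratio that turned above 0 with the same sum.

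Other receptor tyrosine kinases also lay on both sides. Of 18 measured, 8 were at least 2-fold higher, 6 of them listed at 0 with IgG, and 5 were lower, beside 39.9% and 29.9% of all genes. DDR1, an epithelial collagen receptor, had 37.2 FPKM with IMP1 and 45.9 FPKM with IgG, and FGFR2 had 5.83 and 3.62 FPKM. DDR2, the collagen receptor of mesenchymal cells, was listed at 0 with IMP1 and had 12.6 FPKM with IgG, in the direction of the mesenchymal markers. DDR1 and FGFR2 were the receptors outside the 10 genes that reached 1 FPKM in both libraries, and neither passed the 2-fold limit.

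The genes most like ERBB3 in both levels, by distance over the 2 log2 values, were NR2F6 (9.35 and 2.16 FPKM with IMP1 and IgG), PIGQ (10.2 and 2.24 FPKM) and FAM134C (10.1 and 2.43 FPKM). Those most like PIK3CA were NDUFAF2 (1.13 and 7.36 FPKM), IQCJ-SCHIP1 (1.12 and 7.32 FPKM) and ARHGAP29 (1.17 and 7.05 FPKM). With 2 libraries this likeness rests on 2 values per gene.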

How the data were processed

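RNA from IMP1 and IgG precipitates of T47D cells was sequenced and analysed by a company for the authors. The authors deposited FPKM per gene. The genome build in the submitters' processing notes is hg19, and the aligner, quantifier and annotation are not given in the sources used here. The deposited table also holds the authors' ratio (fold change), p-value and q-value, which were not used, nor were the lists of genes called from them. Zeros written as 1e-05 were set to 0, and 1 was added to each interval start. Groups were taken from the treatment labels.

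The log2 ratio of (FPKM + 0.1) was taken for each of the 18781 genes, and those differing at least 2-fold were counted in each direction. No test was run, for want of replicates. The members and gene lists were chosen with earlier results of these data known. Named are the members, the 2 highest genes of each list in each library, the counterparts INPP4B, IRS2, AKT2, PIK3CB and PIK3R2, and the 3 genes nearest ERBB3 and PIK3CA. Others, among them BTC, IGF2, IGF2R, HRAS, GRB7, PGAP3, the genes sharing an interval and the markers, were named after their values were seen. Some genes that the rule names are not reported here. Alternatives were other pseudocounts, filters, scales and a 4-fold limit. The counting was checked on simulated data. Promoter sequences are from RefSeq (GRCh38.p14). Python 3.11.15, numpy 2.4.6, pandas 2.3.3 and matplotlib 3.10.9 were used.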

Additional observations from a re-analysis of the deposited data

How the results depend on the processing

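Each group has 1 library, so leaving one out was not possible. No paired analysis was possible because neither library has a replicate or a partner. The number of members at least 2-fold higher, 4, was 7 with both libraries rescaled to the same sum and 2 at 4-fold, and the number lower, 3, was 0 and 1. Over all genes, 63.7% were higher and 13.0% lower with the same sum, and 26.1% and 17.3% at 4-fold. The other settings gave 3 to 6 higher and 2 or 3 lower, beside 11.5% to 49.3% higher and 21.3% to 44.0% lower of all genes. The median log2 ratio of the members, 0.65, was 0.35 with a pseudocount of 1, 0.66 with 0.01, 0.40 among genes above 0 in both libraries, 1.43 with the median ratio set to 1, 2.50 with the same sum and 1.21 with the same sum without the 50 highest genes. Over all genes the median was 0.40 as deposited. Under these settings it was 0.09, 0.62, -0.72, 0.96, 1.87 and 0.79 in the same order.

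The log2 ratio of EGFR, -0.06, was 0.68, 1.73 and 0.47 under these 3 scales in the same order, and that of IRS1, -1.60, was 0.15 with the same sum. For the other genes of the route, alternatives were added after seeing the data. The number higher, 27 of 90 entries, was 17 above 0 in both, 8 with at least 1 FPKM in both, 41 with the median ratio set to 1 and 62 with the same sum. All genes had 17.5%, 11.5%, 49.3% and 63.7% higher under these settings in the same order. The filters leave fewer entries, 58 with at least 1 FPKM in both. The number lower, 25, was 10 with the same sum and 16 at 4-fold, beside 13.0% and 17.3% of all genes. INSR has no value among genes above 0 in both, and INSR and IRS1 have none among those with at least 1 FPKM in both. Each rescaling multiplies every IMP1 value by the same factor, 1.49 to 3.67 in these data, so it raises the ratios of all genes above 0 with IMP1. Over all genes, 57.2% of those past 2-fold were higher, against 43.8% with a pseudocount of 1, 28.6% above 0 in both, 20.7% with at least 1 FPKM in both, 69.9% with the median ratio set to 1 and 83.1% with the same sum. Depth is unknown and limits low genes such as INSR.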
